A study of Mus musculus with 19 samples.

Results

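Single-exon protein-coding transcripts are messenger RNAs made from genes without introns, or from the intronless form of a gene, and were followed here in mouse neural progenitor cells with and without Mettl14. They were taken from the GENCODE M21 annotation as transcripts of type protein_coding with 1 exon, and symbols of histone genes (beginning with Hist) and of mitochondrial genes (beginning with mt-) were left out. The rule held for 2724 of the 150173 targets in the ladder files, from 2666 genes, and these were set beside 55151 multi-exon protein-coding transcripts. No measured value enters this rule, although it was chosen with earlier results of these data known.

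The cells were neural progenitors from embryonic cortices of Mettl14 conditional knockout (KO) and Mettl14 wild-type (WT) mice, and all groups were grown in Neurobasal medium with B27, heparin, EGF (20 ng/ml) and FGF2 (20 ng/ml). The short-read data were 4 KO ladder libraries, 4 WT ladder libraries and 3 standard WT libraries. In a ladder library mRNA was first separated by length into 7 bands that carried their own barcodes, and was read as pairs of 75 nt; standard libraries were read as single ends of 50 nt. Native RNA and direct cDNA were also read on a nanopore device in both genotypes, and each assembly pooled the replicates of a genotype. The Cre driver, the embryonic age and whether replicates came from separate embryos or cultures are unstated in the sources used here, so p-values measure the spread between these libraries, which may be technical.

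N6-methyladenosine (m6A) is a mark on adenosines within mRNA, set by a complex of the enzyme METTL3 and its partner METTL14, most often in the sequence GGACT or a close relative. Bound by reader proteins of the YTHDF family, the mark promotes decay of the mRNA. Proteins left on exon junctions after splicing keep the mark away from nearby sequence, so it gathers in long internal exons and last exons. A transcript with 1 exon has no junctions. In cortical progenitors, m6A is known for timing the decay of mRNAs for neurogenic transcription factors, several of which are made from genes without introns. The mark itself was not measured in these data.

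The GGACT windows of 10 transcripts show where the preferred m6A sequence lies in some of the transcripts with the largest changes between genotypes. No window is given for the clustered protocadherin (Pcdhb) genes, which make up most of the largest falls. Those of Hnrnpf, Lcmt2, Bmyc and Ccdc85b are also left out. Each run is 29 nt of coding sequence on the transcript strand, with GGACT in capitals, at the GGACT closest to the end of the coding sequence, read from the GENCODE M21 transcript sequences with GRCm38 coordinates. The first 7 transcripts were higher in KO cells and the last 3 were lower.
Riox1 (chr12:83952392-83952420, plus strand): tgtgagagtgggGGACTtgccatgtgaca
Cited2 (chr10:17724701-17724729, plus strand): tgattttatgacGGACTtcgtgtgcaagc
Tmem158 (chr9:123259751-123259779, minus strand): ccgtacccgcggGGACTaccgccgctgcc
Hpdl (chr4:116820469-116820497, minus strand): ctgcagcacgtaGGACTgtacactcctaa
Fzd9 (chr5:135249592-135249620, minus strand): acgcctcaacatGGACTtctggcggcttc
Hps6 (chr19:46005058-46005086, plus strand): aggaggctggctGGACTgagttagcggag
Rbm15b (chr9:106885317-106885345, minus strand): ctttttggaaggGGACTggaccagcctca
Slitrk1 (chr14:108911395-108911423, minus strand): gtgttggtcccgGGACTgctgctggtgtt
Kcnf1 (chr12:17175537-17175565, minus strand): gctgcaagtggtGGACTccgaaggcaacc
Rtl5 (chrX:102070502-102070530, minus strand): taatgtggtccaGGACTataccaaccccg
The distance from the motif to the end of the coding sequence ran from 35 nt in Cited2, 75 nt in Tmem158 and 92 nt in Riox1 over 331 nt in Hpdl, 350 nt in Fzd9 and 966 nt in Hps6 to 1022 nt in Rbm15b among the rises, and was 217 nt in Slitrk1, 845 nt in Kcnf1 and 1448 nt in Rtl5. Tspyl3 and Tusc1, which rose most, hold no GGACT in their coding sequence. Over the whole transcript, Rbm15b and Riox1 held 6 GGACT each, Hps6 and Slitrk1 held 5 each, and Kcnf1 held 8. Of those without a window here, Ccdc85b among the rises held 12 and Hnrnpf among the falls held 1. Transcripts of both directions carried the motif, and no window is known from these data to be methylated.

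As a check of the labels, Mettl14 stood at 6.17, 8.28, 6.83 and 7.03 CPM (estimated counts scaled by TMM to a common library size, here summed over the gene) in KO ladder libraries, against 23.9, 19.5, 29.1 and 26.8 CPM in WT ladder libraries, a log2 fold change of -1.87 ± 0.13 (SE). Total estimated counts were 104900000 to 118198000 per KO ladder library, 103752000 to 126922000 per WT ladder library and 12084500 to 13987900 per standard library. Markers of cell types, summed over the gene, moved between genotypes in both directions. Of 11 progenitor markers (none at 0; sum 4609 to 5595 CPM in KO and 6440 to 7108 CPM in WT ladder libraries), Nes was higher, Fabp7, Vim and Prom1 were lower and the others were not called. Of 5 neuronal markers (222.5 to 303 CPM in KO and 226 to 330.4 CPM in WT), Tubb3, Dcx, Snap25 and Rbfox3 were lower, with log2 fold changes of -1.38, -1.45, -2.37 and -0.93, and Map2 was not called. Among oligodendrocyte-lineage markers (summed at 347 to 449 CPM in KO and 364 to 671 CPM in WT), Pdgfra, Sox10 and Mbp were lower, with log2 fold changes of -4.26, -4.12 and -2.59, and Olig2 was not called. Of 5 astrocyte markers (459.8 to 536 CPM in KO and 442 to 769 CPM in WT), 4 were higher and Aldh1l1 was lower. Of 6 meningeal fibroblast and mural cell markers (6.73 to 8.0 CPM in KO and 0.486 to 0.718 CPM in WT), the 5 tested were higher. Of 5 endothelial markers (3.43 to 4.08 CPM in KO and 6.24 to 7.98 CPM in WT), Pecam1 was higher, Flt1 and Kdr were lower, and Cdh5 was at 0 in WT libraries. Of 5 microglial markers (1.39 to 2.01 CPM in KO and 0.787 to 1.15 CPM in WT), Csf1r and P2ry12 were higher. Their part in the results was not tested, and in such bulk samples fewer cells of a type and less RNA per cell cannot be told apart.

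Most single-exon coding transcripts had no reads in ladder libraries. A value of 0 there does not show that a gene is silent, since standard libraries held some of the same members. In the 8 ladder libraries 1764 of the 2724 had no estimated count, and 917 reached 1 count in total. Chemosensory genes made up 1314 of the 2724 members, as olfactory, vomeronasal, taste or trace amine receptors. These receptors serve the detection of odours, pheromones and tastes, and 63 of them reached 1 count. Their summed level was 0.866 to 1.07 CPM of all counts in KO ladder libraries, 1.01 to 1.79 in WT ladder libraries and 8.45 to 11.3 in WT standard libraries. On average 221 members stood at 1 TPM or more in KO ladder libraries, 215 in WT ladder libraries and 350 in WT standard libraries. The transcripts were short, with a median of 972 nt (57 to 11294 nt) and a GC content of 46.0% at the median, beside 1898 nt and 50.5% for multi-exon coding transcripts.

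Single-exon transcripts took a larger share of the coding counts in KO cells. The share was 2.05%, 2.00%, 2.09% and 2.04% in KO ladder libraries, against 1.58%, 1.49%, 1.70% and 1.70% in WT ladder libraries. Every KO library stood above every WT library, and the means were 2.05% ± 0.04 and 1.62% ± 0.10 (SD, n = 4 each). WT standard libraries held 1.85% to 2.00%, which overlapped the KO range. The 5 most abundant members carried a large part of it, and 4 of them, Rps12-ps3, Gm11808, Rpl10-ps3 and Gm2000, whose symbols are of the forms given to pseudogenes and predicted genes, share over 90% of their 31-nt words with transcripts of other genes, so their reads are shared out by the quantifier. Without these 5 the share was 1.20% to 1.33% in KO and 0.898% to 1.06% in WT ladder libraries, still without overlap. Members with under 10% of such shared words held 0.986% ± 0.058 in KO and 0.705% ± 0.063 in WT ladder libraries (SD, n = 4 each).

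By length, the share was larger in KO than in WT ladder libraries without overlap in 4 of the 6 classes. It was 1.21% to 1.35% in KO and 0.918% to 1.04% in WT libraries for transcripts of over 1000 to 2000 nt, 2.41% to 2.65% and 1.46% to 1.82% for over 2000 to 3000 nt, 0.954% to 1.09% and 0.704% to 0.941% for over 3000 to 4000 nt, and 1.74% to 1.8% and 1.14% to 1.39% for over 4000 to 6000 nt. The ranges overlapped up to 1000 nt (3.41% to 3.93% in KO and 3.31% to 3.57% in WT) and over 6000 nt (1.05% to 1.41% in KO and 0.831% to 1.25% in WT). The class of over 2000 to 3000 nt holds Olig1, a basic helix-loop-helix factor of the oligodendrocyte lineage and the only one of the 5 most abundant members with few shared words. Olig1 stood at 1282, 1395, 1579 and 1370 CPM in KO ladder libraries, against 760.04, 591, 961 and 907 CPM in WT ladder libraries.

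**Figure D1:**
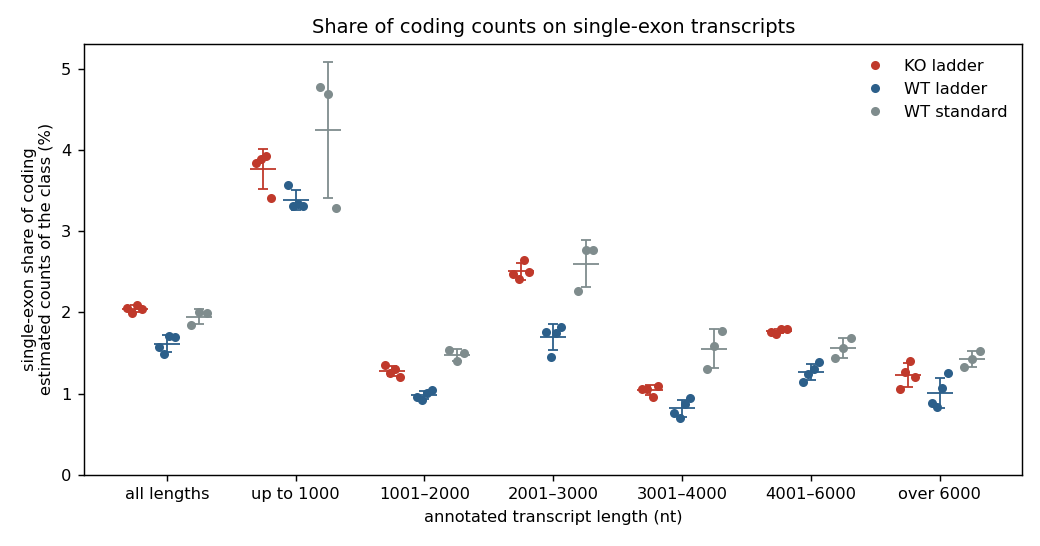
Share of the coding estimated counts of each annotated length class (x axis, nt) that fell on single-exon transcripts (y axis, percent); each point is 1 library, horizontal bars are means and whiskers are SD, for KO ladder (n = 4), WT ladder (n = 4) and WT standard libraries (n = 3). The KO points lie above all WT ladder points at all lengths pooled (2.00% to 2.09% against 1.49% to 1.70%) and in the 4 classes from over 1000 to 6000 nt.

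At the level of single transcripts, more members rose than fell in KO cells. Of the 456 members that passed the default filter on low counts, 143 were higher and 95 were lower in KO ladder libraries by edgeR's quasi-likelihood test, with p adjusted over all targets and a threshold of 0.05. Among all 59136 targets tested, 37.3% were called in either direction, 18.2% higher and 19.1% lower; among the members the shares were 31.4% and 20.8%, and among 27549 multi-exon coding transcripts 22.7% and 15.4%. The median log2 fold change was 0.15 for members, 0.09 for multi-exon coding transcripts and -0.06 for all targets. The libraries of both genotypes did not overlap for 138 of the 143 rises, 92 of the 95 falls and 21 of the 218 members not called. The same count was not made over all targets, so it shows no trait particular to the members. The other 2268 members did not pass the filter, and nothing is said of them.

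The share of members called was larger than among multi-exon transcripts in every length class. From the shortest class to the longest it was 37.5%, 51.9%, 52.6%, 52.2%, 60.3% and 66.7% of members. Among multi-exon coding transcripts it was 27.9%, 42.5%, 41.5%, 36.9%, 40.2% and 36.4%. Over all lengths, 54.8% of members that were the only target of their gene were called. It was 44.3% for members whose gene has other targets, beside 38.1% for multi-exon coding transcripts. The sets were not matched for abundance or for the number of targets per gene, and the part of these was not tested. The share of members called higher lay between 26.1% and 34.9% in all classes. The share called lower was 8.93% up to 1000 nt and 33.3% over 6000 nt. Up to 1000 nt, 16 of 56 members were higher and 5 were lower, with a median log2 fold change of 0.37, beside 0.11 for multi-exon coding transcripts of that class. From over 1000 to 2000 nt, 43 of 131 were higher and 25 were lower (median 0.26, beside 0.09). From over 2000 to 3000 nt the counts were 37 and 24 of 116 (median 0.04, beside 0.17), from over 3000 to 4000 nt 18 and 18 of 69 (0.15, beside 0.03), from over 4000 to 6000 nt 22 and 16 of 63 (0.02, beside 0.05), and over 6000 nt 7 and 7 of 21 (-0.12, beside 0.04). The Pcdhb genes, most of which fell, weigh on the longer classes: those named here measured 2813 nt (Pcdhb2) to 8695 nt (Pcdhb14). Medians by length without this family were not computed. 

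Base composition moved with the direction of change. Of members with under 40% GC, 1 of 20 was higher and 7 were lower in KO cells; of members with 60% GC or more, 31 of 73 were higher and 8 were lower. The median log2 fold change was -0.49 under 40% GC, -0.57 for 40% to 45%, 0.02 for 45% to 50%, 0.14 for 50% to 55%, 0.44 for 55% to 60% and 0.55 from 60%. Multi-exon coding transcripts ran from low to high over a smaller range, with medians of -0.27, -0.14, 0.03, 0.16, 0.25 and 0.36 in these classes. Without Pcdhb genes the median of members was -0.13 for 40% to 45% GC, with 8 of 40 higher and 12 lower, and 0.15 for 45% to 50%, while no tested Pcdhb gene had 50% GC or more. Tested members had a median GC content of 53.0%, beside 51.1% for tested multi-exon transcripts. WT replicate 2 was the lowest WT library for 64 of the 143 rises, and WT replicate 3 the highest for 63. The part of base composition in the changes was not tested.

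**Figure D2:**
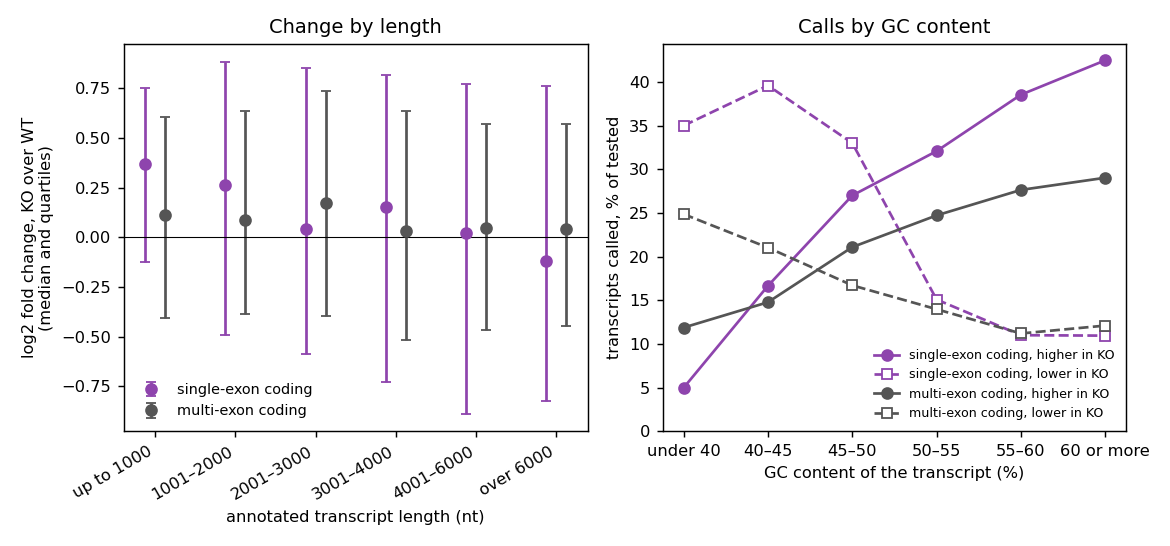
Left, log2 fold change of KO over WT ladder libraries (y axis) by annotated transcript length (x axis, nt) for single-exon and multi-exon coding transcripts; points are medians and whiskers run between quartiles. Right, percent of tested transcripts called higher or lower in KO (y axis) by GC content (x axis, percent); the share of single-exon transcripts called higher is 5.00% under 40% GC and 42.5% from 60% GC.

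GGACT was about as dense in these transcripts as in spliced ones. Tested members held 1.14 GGACT per 1000 nt and tested multi-exon coding transcripts held 1.11; the reverse complement AGTCC, which has the same GC content, stood at 0.849 and 0.987. GGACT was searched on the transcript strand only, and was found in 86.4% of tested members and 87.6% of tested multi-exon transcripts. The median log2 fold change was 0.18 for 62 members without the motif, 0.15 for 158 with 1 to 2 copies, 0.15 for 171 with 3 to 5 copies and 0.12 for 65 with 6 or more. Over transcripts, the rank correlation of log2 fold change with GGACT per 1000 nt was 0.085 in 456 members and 0.068 in 27549 multi-exon transcripts, as a description: the points share libraries, base composition and gene families. Without the 21 tested Pcdhb genes the medians were 0.18, 0.15, 0.31 and 0.37 over these classes, and the rank correlation was 0.11 in 435 members. That family was singled out by its fall in these same data, so leaving it out raises the medians where its genes lie. Multi-exon coding transcripts had medians of 0.06, 0.08, 0.09 and 0.12 over the same classes. The part of the motif in the changes was not tested. Over all tested members the share called higher went up with the number of copies (21.0%, 29.7%, 33.3% and 40%), and so did the median length (1234, 1814, 2734 and 4526 nt).

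The largest rise among members with an average of at least 1 on the log2 CPM scale was that of Tspyl3, a member of the TSPY-like family of nucleosome assembly proteins (chr2:153222370-153225441). It had 3.78, 5.05, 5.51 and 4.2 CPM in KO ladder libraries, against 0.222, 0.215, 0.330 and 0.269 CPM in WT ladder libraries, a log2 fold change of 4.16 ± 0.22 (SE, edgeR adjusted p = 1.3e-05). Tusc1, a candidate tumour suppressor of unclear function (chr4:93334138-93335511), had 7.34, 9.28, 8.76 and 11 CPM in KO and 0.868, 0.977, 0.898 and 0.754 CPM in WT libraries. Its log2 fold change was 3.38 ± 0.17. Both genotypes stood far apart for these transcripts, each at a low level in WT cells.

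The next large rises, in no order of size, included Riox1, Rbm15b, Lcmt2, Cited2 and Bmyc. Riox1, a histone demethylase and ribosomal oxygenase, had 39.8, 42.9, 50.6 and 42.8 CPM in KO and 8.96, 6.36, 11 and 9.97 CPM in WT libraries (log2 fold change 2.28 ± 0.18). Rbm15b, an RNA-binding adaptor that guides the m6A writer complex to its targets, had 97.3, 112, 126 and 120.2 CPM in KO and 28.0, 17.6, 36.5 and 38.1 CPM in WT libraries (1.92 ± 0.24, adjusted p = 0.00049). Lcmt2, which completes the wybutosine base of phenylalanine tRNA, averaged 5.71 ± 0.57 CPM in KO and 1.43 ± 0.24 CPM in WT libraries (SD, n = 4 each). Cited2, which binds the coactivators CBP and p300, averaged 10.4 ± 2.1 and 2.22 ± 1.09 CPM, and Bmyc, a short relative of Myc, averaged 196 ± 54 and 51.6 ± 3.5 CPM. The log2 fold change of Cited2 was 2.23 for the single-exon transcript and 1.20 summed over the gene. In none of these did a KO library reach down to a WT library, a condition of the rule that named them.

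The other named rises were those of Fzd9, Hps6, Hpdl, Tmem158 and Ccdc85b. Fzd9 is a Frizzled receptor for Wnt ligands, and had 120, 132, 150.2 and 132 CPM in KO and 34.0, 27.9, 40.9 and 37.2 CPM in WT libraries (1.93 ± 0.14, adjusted p = 4.6e-05). Hps6, a subunit of the BLOC-2 complex of lysosome-related organelles, had 18.9, 21.7, 24.0 and 22.3 CPM in KO and 4.08, 3.12, 4.98 and 4.47 CPM in WT libraries. Hpdl, a mitochondrial enzyme in the synthesis of the coenzyme Q headgroup, averaged 3.43 ± 0.15 CPM in KO and 0.790 ± 0.094 CPM in WT libraries. Tmem158, a membrane protein known in human fibroblasts as induced by Ras, averaged 47.0 ± 7.3 and 12.9 ± 2.1 CPM, and Ccdc85b, a coiled-coil repressor of transcription, averaged 54.8 ± 14.4 and 14.9 ± 2.2 CPM (SD, n = 4 each). All of these transcripts had higher values in every KO library than in any WT library, a condition of the rule that named them.

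**Figure D3:**
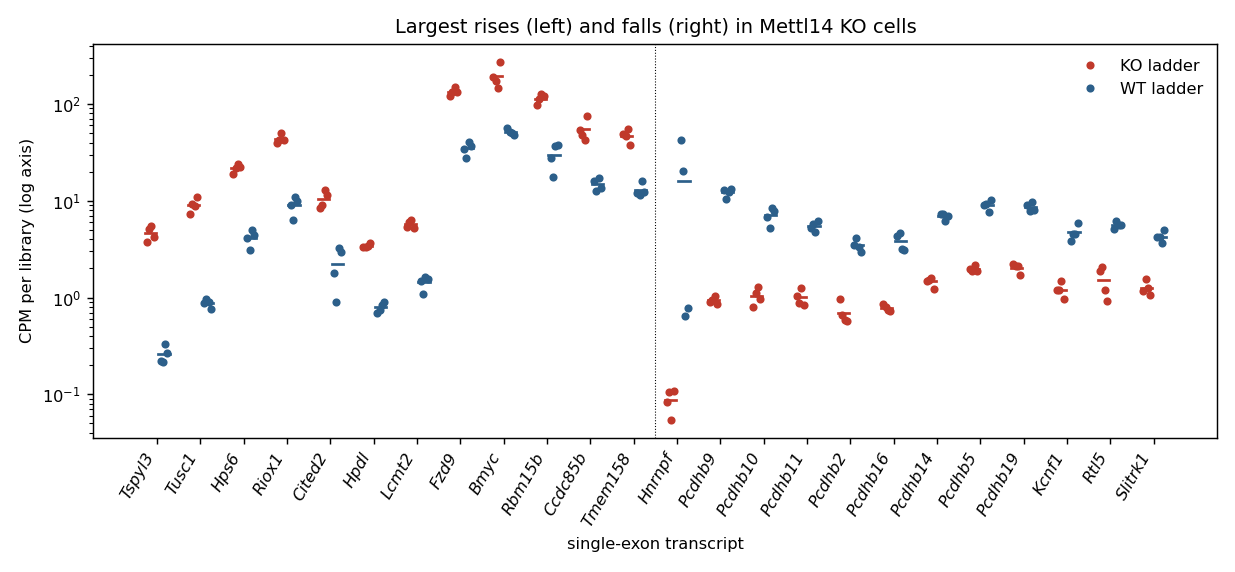
CPM of each ladder library (y axis, log scale) for the single-exon transcripts with the 12 largest rises (left of the dotted line) and the 12 largest falls (right of it); KO libraries stand left of WT libraries for each transcript, points are libraries (n = 4 per genotype) and bars are means. Hnrnpf differs from the other falls in that its WT libraries split, at 42.8 and 20.4 CPM against 0.643 and 0.772 CPM.

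Most of the largest falls were in 1 gene family. The clustered beta protocadherins are homophilic adhesion molecules, each made from 1 exon, whose combinations give neurons a surface identity; they lie in a row on chromosome 18. Of 22 Pcdhb members, 21 were tested, 20 were lower in KO cells and none was higher, with a median log2 fold change of -2.24, beside -0.06 for all targets. Neuronal markers, 4 of 5 of which fell as given above, moved with this neuronal family, and their part was not tested. Without this family, 75 of 435 members were lower (17.2%) and 143 were higher (32.9%), and the median was 0.22.

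Pcdhb9 fell most, to 0.906, 0.950, 1.03 and 0.866 CPM in KO ladder libraries, against 12.8, 10.5, 12.4 and 13.3 CPM in WT ladder libraries, a log2 fold change of -3.71 ± 0.14 (edgeR adjusted p = 4.0e-06). Pcdhb10 had 0.803, 1.10, 1.27 and 0.957 CPM in KO and 6.78, 5.28, 8.36 and 7.77 CPM in WT libraries. Pcdhb5 averaged 1.97 ± 0.14 and 9.05 ± 1.03 CPM, Pcdhb14 1.47 ± 0.16 and 6.93 ± 0.56 CPM, Pcdhb19 2.04 ± 0.23 and 8.69 ± 0.95 CPM, and Pcdhb11 1.01 ± 0.19 and 5.51 ± 0.59 CPM in KO and WT libraries (SD, n = 4 each). The genes at the far end of the row moved less: Pcdhb20 had a log2 fold change of -0.92, Pcdhb21 of -1.06 and Pcdhb22 of -0.23, the last at 6.45 ± 0.68 CPM in KO and 7.58 ± 1.05 CPM in WT libraries and not called (adjusted p = 0.24). The 21 tested members shared between 5.55% (Pcdhb14) and 66.9% (Pcdhb12) of their 31-nt words with other genes.

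Beyond this family, the largest falls by the same rule were those of Hnrnpf, Kcnf1, Rtl5 and Slitrk1. Kcnf1, an electrically silent subunit of potassium channels, had 1.20, 1.20, 1.47 and 0.966 CPM in KO and 3.84, 4.5, 4.55 and 5.96 CPM in WT libraries (log2 fold change -1.96 ± 0.20, adjusted p = 0.00018). Slitrk1, a leucine-rich repeat protein of neurites and synapses, had 1.17, 1.55, 1.26 and 1.06 CPM in KO and 4.23, 4.22, 3.63 and 4.95 CPM in WT libraries. Rtl5, derived from a retrotransposon gag gene, averaged 1.51 ± 0.54 and 5.64 ± 0.46 CPM. The single-exon transcript of Hnrnpf, a splicing regulator with 10 targets in all, had 0.0841, 0.104, 0.0546 and 0.109 CPM in KO and 42.8, 20.4, 0.643 and 0.772 CPM in WT libraries; its log2 fold change was -7.50 ± 1.61, and -6.35 without WT replicate 1. Of its 31-nt words, 99.7% occur in other transcripts of the gene.

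The counts of each list below stand beside 18.2% of all targets called higher and 19.1% called lower, and beside 31.4% and 20.8% of members. Among transcription factors, the SOX genes without introns, which hold progenitor and early neuronal fate, were higher or not called. Of 6 tested members, 4 were higher and none was lower, with a median log2 fold change of 0.59. Sox11, a factor of early neurons, had 128, 114, 114 and 111 CPM in KO and 71.8, 74.6, 70.2 and 60.1 CPM in WT libraries (0.75 ± 0.10, adjusted p = 0.00081). Sox21, which opposes Sox2-type factors, had 58.8, 62.9, 75.4 and 58.3 CPM in KO and 31.5, 25.3, 36.3 and 46.7 CPM in WT libraries (0.87 ± 0.19). Sox3 was higher by 0.71 and Sox4, which shares 54.7% of its 31-nt words with other genes, by 0.48 on the log2 scale. Sox2, the central factor of neural stem cells, had 39.8, 108, 22.2 and 65.4 CPM in KO and 73.5, 49.0, 38.7 and 57.5 CPM in WT libraries, an overlap in which no change was called (0.10 ± 0.45, adjusted p = 0.88). Sox1 averaged 29.3 CPM in KO and 31.2 CPM in WT libraries and was not called either. The direction in which reads were stranded is unstated in the sources used here, so reads from an antisense or overlapping RNA, such as the one that spans Sox2, cannot be told apart from those of the gene.

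Of 14 tested POU, FOX, basic helix-loop-helix and other developmental factors, 7 were higher and 2 were lower (median 0.66), beside 18.2% and 19.1% of all targets. Pou3f3, a factor of upper cortical layers, had 296, 314, 367 and 275 CPM in KO and 159, 163, 184 and 232 CPM in WT libraries (0.76 ± 0.15). Maf, a basic leucine zipper factor, had 25.8, 29.8, 29.0 and 25.9 CPM in KO and 7.19, 9.34, 9.04 and 12.8 CPM in WT libraries (1.53 ± 0.18). Foxd2, a forkhead factor of mesenchyme and neural crest, was found at 0.205, 0.256, 0.309 and 0.264 CPM in KO and at 0, 0.0238, 0.0165 and 0 CPM in WT libraries, 112 estimated counts over the KO and 5 over the WT libraries. The mesenchymal and mural markers given above had the same direction, and their part in this value was not tested. Pou3f4 and Bhlhe22, factors of neuronal differentiation, fell, to 8.92 ± 1.17 and 0.628 ± 0.088 CPM in KO, against 13.1 ± 1.8 and 1.70 ± 0.56 CPM in WT libraries (SD, n = 4 each). The call of Pou3f4 (edgeR adjusted p = 0.017) was lost without a filter on low counts (0.057) and with the replicate number as a block (0.068). Pou3f2 stood at 24.0 ± 1.5 CPM in KO and 22.0 ± 2.0 CPM in WT libraries and was not called.

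Immediate early genes and basic leucine zipper factors, which answer to growth factors and stress, were mostly higher, with 9 of 12 called higher and 1 lower (median 0.69), beside 18.2% and 19.1% of all targets; this list shares members with the one before, Maf among them. Jund, a subunit of the AP-1 factor, had 269, 263, 283 and 259 CPM in KO and 127, 121, 156 and 137 CPM in WT libraries (0.99 ± 0.11, adjusted p = 0.00025), while 50.1% of its 31-nt words occur in other genes. Cebpb, a factor of inflammatory and metabolic genes, had 39.4, 44.6, 40.9 and 45 CPM in KO and 14.8, 16.3, 16.7 and 16.6 CPM in WT libraries (1.40 ± 0.10). Ier2 was the exception, with 19.1, 19.9, 19.1 and 19.7 CPM in KO and 30.1, 31.6, 31.9 and 29.9 CPM in WT libraries (-0.67 ± 0.08). Jun overlapped between genotypes, at 98.5 to 145 CPM in KO and 51.6 to 125 CPM in WT libraries, and was not called.

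Of 11 tested Frizzled receptors and regulators of Wnt, Notch or bone morphogenetic protein signalling, 5 were higher and 1 was lower (median 0.78). Those called higher were all Frizzled receptors. Fzd1 had 238, 239, 276 and 209.8 CPM in KO and 86.3, 96.4, 90.0 and 123 CPM in WT libraries (1.28 ± 0.14, adjusted p = 0.00031). Fzd2, Fzd7 and Fzd8 were higher by 1.31, 1.23 and 1.14 on the log2 scale, and Fzd9 by 1.93. The sixth, Fzd10, stood at 43.7 to 61.2 CPM in KO and at 33.1, 14.9, 39.1 and 34.5 CPM in WT libraries, without overlap, and was not called (0.78 ± 0.27, adjusted p = 0.053); it was called without WT replicate 2 (adjusted p = 0.013), without WT replicate 3 (0.048) and by DESeq2 (0.013). Amer2, a regulator of the beta-catenin destruction complex, fell to 6.31 to 6.44 CPM in KO, against 10.1 to 16.5 CPM in WT libraries; summed over the 3 targets of its gene the log2 fold change was -0.25 and not called (adjusted p = 0.19), against -1.05 for the single-exon transcript. Nog, an antagonist of bone morphogenetic proteins, Frat1 and Frat2, which bind the kinase GSK3, and Nrarp, a feedback regulator of Notch, were not called.

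Enzymes that build glycans in the Golgi were higher in 5 of 6 tested members and lower in none (median 0.92), beside 18.2% and 19.1% of all targets. Mgat2, needed for complex N-glycans, had 86.4, 109, 109.7 and 103 CPM in KO and 42.4, 25.3, 57.2 and 51.2 CPM in WT libraries (1.21 ± 0.23). B3galt4, an enzyme of gangliosides, averaged 9.49 ± 1.08 and 3.74 ± 0.17 CPM, and Galnt4, which starts O-glycans, averaged 27.5 ± 2.0 and 15.9 ± 1.1 CPM. Fut4 was not called, at 0.747 and 0.737 CPM.

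Of 5 tested genes for RNA-binding, m6A writer and translation proteins, 3 were higher and none was lower (median 1.18). Hnrnpa0, a binder of AU-rich elements, had 504, 569, 608 and 545 CPM in KO and 251, 123, 319 and 288 CPM in WT libraries (1.18 ± 0.26, adjusted p = 0.0086). Kti12, a partner of the Elongator complex that modifies tRNA wobble bases, had 35.7, 38.0, 38.0 and 36.5 CPM in KO and 15.7, 15.7, 16.8 and 15.5 CPM in WT libraries (1.22 ± 0.09). Purb, a binder of purine-rich single strands, averaged 76.5 ± 8.4 and 97.9 ± 17.3 CPM and was not called. Of the chaperones, 2 of 4 were higher, Dnajc30 at 0.88 and Hspa2 at 0.61 on the log2 scale (its call was lost without KO replicate 2, KO replicate 3 or WT replicate 1, with adjusted p of 0.053 to 0.064), and the stress-induced Hspa1a and Hspa1b were not called, with 0.494 to 3.90 CPM of Hspa1b in KO and 0.347 to 2.91 CPM in WT libraries.

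Lists of receptors, channels and imprinted genes had no common direction. Of 16 tested G protein-coupled receptors other than chemosensory ones, 3 were higher and 4 were lower, near the 18.2% and 19.1% of all targets; Adrb1, a beta adrenergic receptor, had 10.5, 14.9, 15.3 and 13.3 CPM in KO and 28.0, 11.6, 35.5 and 33.1 CPM in WT libraries, and its call (-1.0 ± 0.32, adjusted p = 0.039) was lost on leaving out any library but WT replicate 2, with adjusted p of 0.069 to 0.099. Of 7 ion channel genes, Kctd12, an auxiliary subunit of GABA-B receptors, rose (1.69 ± 0.16) and 3 potassium channel subunits fell, of which Kcna1 (adjusted p = 0.041) lost its call without any of 5 libraries (0.075 to 0.10). Of 9 MAGE, RTL and other X-linked or retrotransposon-derived genes, 2 were higher and 4 were lower, among them Mageh1, which had 89.1, 89.4, 81.3 and 78.6 CPM in KO and 145, 144, 157 and 149.7 CPM in WT libraries. Among imprinted genes Mcts2 rose (0.69) and Nap1l5 fell (-0.88), with 2 not called. Of 5 leucine-rich repeat proteins, Lrrc4 and Amigo3 rose and Slitrk1 fell; of 5 ubiquitin ligase adaptors and related factors, Klhl9 rose (1.08) and Zbtb18 fell (-0.91). Of the 4 chemosensory receptors that passed the filter, Olfr613 fell, at 0.0819 to 0.112 CPM in KO and 0.173 to 0.246 CPM in WT libraries.

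**Figure D4:**
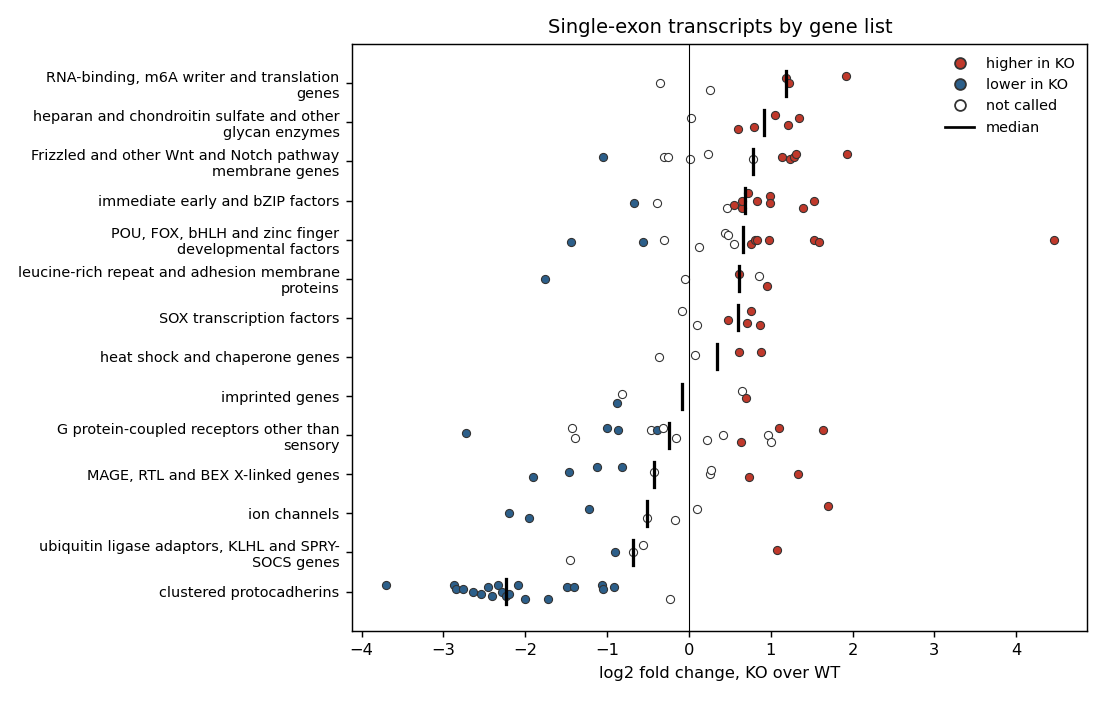
Log2 fold change of KO over WT ladder libraries (x axis) for each tested single-exon transcript of 14 gene lists (rows, ordered by median); filled points were called higher or lower at an adjusted p under 0.05, open points were not called and black bars are list medians. A gene in more than 1 list is drawn in each. The clustered protocadherins lie furthest to the left (median -2.24) and the RNA-binding list furthest to the right (median 1.18).

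Some intronless transcripts are 1 of several forms of their gene. Of the 456 tested members, 341 were the only target of their gene; of these 122 were higher and 65 were lower (median 0.26), while of the 115 with other targets 21 were higher and 30 were lower (median -0.15). The share of the gene's counts could be tested for 87 members with diffSpliceDGE, and 2 were higher and 3 were lower, beside 7.01% of 40515 targets called, 2.79% higher and 4.22% lower. The intronless transcript of Zbtb18, a repressor needed for cortical neurons, took 9.97%, 7.51%, 6.37% and 8.88% of its gene in KO ladder libraries, against 26.3%, 22.9%, 24.5% and 19.4% in WT ladder libraries. That of Pop7, a subunit of RNase P, took 5.10% ± 0.61 in KO and 12.5% ± 1.3 in WT libraries (SD, n = 4 each). Hnrnpf went with its transcript level (0.027% ± 0.014 in KO and 5.93% ± 7.10 in WT libraries). Pcdhga7 and C530008M17Rik were higher in share, at 2.14% and 0.511% in KO, against 0.640% and 0.191% in WT libraries. Summed over the gene, Zbtb18 was higher in KO cells, with a log2 fold change of 0.57 (adjusted p = 0.0095), the opposite of its intronless transcript, and Pop7 was higher by 1.68.

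Long reads, which cover an intronless transcript in 1 piece, were compared by the TPM of single-exon StringTie transcripts that overlapped a member by at least 50% of both lengths. In native RNA, 80 of the 143 members higher in KO ladder libraries were found in both genotypes, and 66 of these were higher and 14 were lower in the KO assembly. Another 11 were found in KO only and 12 in WT only. Of the 95 members lower in KO ladder libraries, 12 were found in both, and all 12 were lower in the KO assembly. A further 2 were found in KO only and 13 in WT only. Of members not called, 42 were higher and 31 lower, while 13 were found in KO only and 22 in WT only. In direct cDNA, whose single-exon transcripts mostly carry no strand, 39 were higher and 6 lower among the ladder rises found in both genotypes. Among the ladder falls found in both, 5 were higher and 3 lower. There, 18 rises and 7 falls were found in KO only, and 20 rises and 22 falls in WT only. Riox1 had 78.8 TPM in KO and 10.6 TPM in WT native RNA, Kti12 80.6 and 16.2 TPM, and Sox11 88.2 and 41.1 TPM; Tspyl3 went the other way, at 2.45 and 3.34 TPM. Of the Pcdhb members, Pcdhb17 and Pcdhb20 had a value in native RNA, at 3.69 and 2.33 TPM in WT cells, and were not assembled in KO cells. These assemblies pool replicates, so their values have no error and no test.

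Set against WT standard libraries, WT ladder libraries held 132 members at a higher and 121 at a lower level of 511 tested, beside 47.4% of 48881 targets called in either direction, 24% higher and 23.4% lower (edgeR, adjusted p under 0.05). Library type, read length, read pairing and sequencer differ together here and cannot be told apart. Whether both kinds of library came from the same cultures is unstated in the sources used here. Levels in these sentences were scaled over the targets that both kinds of file share, so those of WT ladder libraries differ from the levels above. The directions depend on the scale: by the deposited TPM, 62 of the 132 higher members were higher in WT ladder libraries and 70 were not, while none of the 121 lower members was higher. The median log2 fold change of members went down with length, at 0.84 up to 1000 nt, 0.55 to 2000 nt, 0.04 to 3000 nt, -0.30 to 4000 nt and -0.40 to 6000 nt, and stood at -0.02 beyond, beside 0.01, 0.85, 0.34, 0.07, -0.17 and -0.39 for multi-exon coding transcripts.

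The clustered protocadherins were higher in WT ladder than in WT standard libraries for 19 of 21 tested members and lower for none, with a median of 1.63. By the deposited TPM, 9 of these 19 were higher in WT ladder libraries and 10 were not, so the family has no direction that holds on both scales. Pcdhb9, higher in ladder libraries on both scales, had 20.0, 17.0, 19.9 and 21.4 CPM in WT ladder libraries, against 0.730, 2.23 and 2.76 CPM in WT standard libraries. Pcdhb10 had 10.6, 8.59, 13.4 and 12.5 CPM in WT ladder and 1.19, 0.628 and 0.587 CPM in WT standard libraries. Tlr5, the receptor for bacterial flagellin, had 3.48 to 4.85 CPM in WT ladder libraries and no count in WT standard libraries, at least 65.5-fold higher against a floor of 3 counts over the standard group. In KO ladder libraries it stood at 0.371 ± 0.051 CPM, against 2.48 ± 0.39 CPM in WT ladder libraries on the scale of the genotype comparison. Olig1 was higher in ladder libraries by CPM, at 1287 ± 263 in WT ladder (n = 4) and 791 ± 91 in WT standard libraries (SD, n = 3), and lower by TPM, at 317 ± 56 and 748 ± 98. The standard libraries were not among the samples of the genotype comparison, and what sets these levels apart was not tested.

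Other members were close to 0 in ladder libraries of both genotypes while standard libraries held them. There were 23 members under 0.5 CPM in WT ladder and at 5 CPM or more in WT standard libraries on average, and 4 of the reverse kind. These counts were not made over all targets, so they show no trait particular to single-exon transcripts. Of tested members 23.7% were called lower in ladder libraries, near the 23.4% of all targets. Ndn, the imprinted growth suppressor necdin, had 0, 0, 0.0132 and 0 CPM in WT ladder libraries, against 52.9, 117 and 139 CPM in WT standard libraries; KO ladder libraries, on the scale of the genotype comparison, held 0.00934, 0, 0.0273 and 0 CPM. Sox12 had 0 CPM in 3 WT ladder libraries and 0.207 CPM in the other, against 57.2, 99.7 and 118 CPM in WT standard libraries. Pou3f1, a POU factor, averaged 0.157 ± 0.049 and 39.8 ± 10.2 CPM, and Fjx1, the homologue of a Golgi kinase known from fly planar polarity, 0.429 ± 0.311 and 128 ± 25 CPM. B3galt1, an enzyme of type 1 glycan chains, had no count in WT ladder libraries and 16.4, 22.1 and 22.0 CPM in standard ones, at least 1943-fold lower in ladder libraries. Native RNA assemblies held Sox12 at 31.2 TPM in KO and 26.0 TPM in WT cells and Fjx1 at 22.1 and 59.7 TPM, while Ndn and B3galt1 had no match there; 11 of the 23 had none in either genotype. Most of these genes did not pass the filter on low counts of the genotype comparison.

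The ladder files alone also hold 11338 assembled targets without an annotated structure, which took 11.9% to 13% of counts in KO and 12.9% to 13.4% in WT ladder libraries. Their sequences were not used here, so whether they hold reads of these genes was not tested. In the reverse direction, Exosc6, a subunit of the RNA exosome, had 41.8 to 54.4 CPM in WT ladder libraries and no count in standard ones, and all of its 31-nt words occur in transcripts of other genes.

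**Figure D5:**
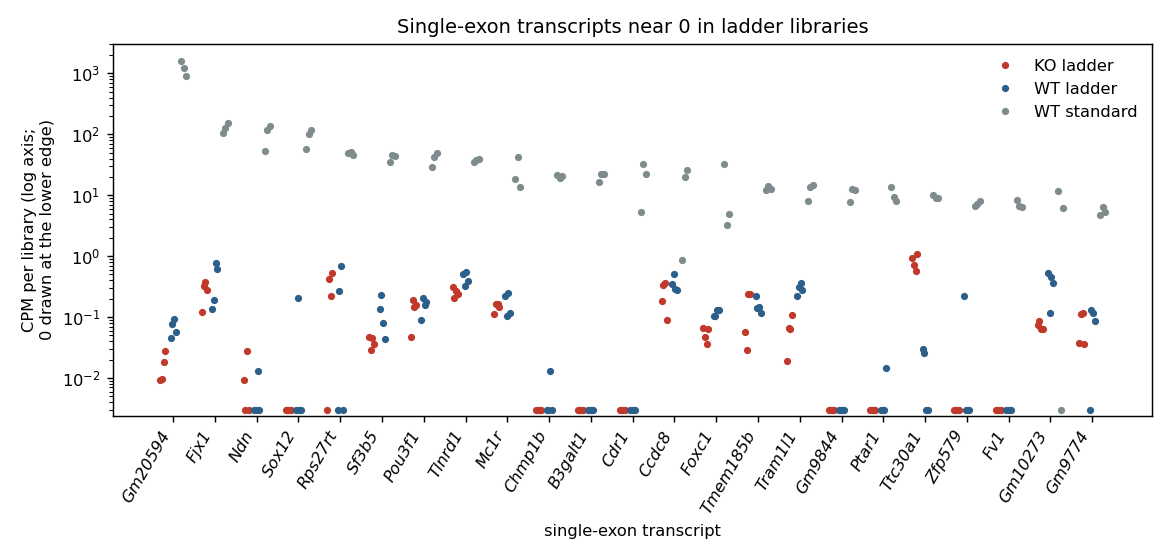
CPM of each library (y axis, log scale, with 0 drawn at the lower edge) for the 23 single-exon transcripts under 0.5 CPM in WT ladder and at 5 CPM or more in WT standard libraries (x axis, ordered by their mean in standard libraries). Points are KO ladder (n = 4, on the scale of the genotype comparison), WT ladder (n = 4) and WT standard libraries (n = 3, on the scale shared with WT ladder libraries); the highest KO ladder value among them is 1.08 CPM.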

How the data were processed

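Short-read libraries were deposited as estimated counts and TPM per target, in the columns that kallisto writes per the file headers; TPM was used for the number of members at 1 TPM or more and as an alternative for the shares. Kallisto, STAR 2.5.4b, StringTie, minimap2 2.17 and GRCm38 are listed per the submitters' processing notes, without a role, and how the 7 bands of a ladder sample were combined is unstated in the sources used here. The long-read assemblies hold genome coordinates of pooled replicates, deposited by the authors, with the TPM that StringTie wrote. The strand of the short-read kits is unstated in the sources used here. Standard replicate 2 lists other targets than the rest of the standard libraries; the comparison with ladder libraries used targets shared by all files in it.

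Estimated counts of all targets were rounded to whole numbers, filtered with filterByExpr at its defaults, scaled by TMM and tested with edgeR 4.0.16 (quasi-likelihood test, robust, R 4.3.3), with Benjamini-Hochberg adjustment over all targets tested and a threshold of 0.05. The fit of KO and WT ladder libraries held those 8, and that of WT ladder and standard libraries held 7, each with its own scaling. DESeq2 1.42.0 was an alternative. Shares of a gene were tested with diffSpliceDGE of edgeR. The SE of a log2 fold change was its size divided by the square root of F. Shared words are the percent of a transcript's 31-nt words that occur in annotated transcripts of other genes. A group without counts was set to 3 counts over the group for a lower bound of a fold, which covers counting error only. The fits were tested on simulated data.

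The members and the gene lists were chosen with earlier results of these data known. Genes were named as the 12 largest rises and falls without overlap at an average log2 CPM of 1 or more, the largest called changes of each list with its most abundant member not called, the largest differences between library types, the 5 most abundant members and the called shares; further list members, the members close to 0 in ladder libraries and the long-read examples were named after their values were seen. Depth was 103752000 to 126922000 estimated counts per ladder library and 12084500 to 13987900 per standard library, so low members are known less well in standard libraries. Alternatives were other size factors, DESeq2, no filter, a replicate block, sums by gene, members that are the only target of their gene, other denominators of the share and leaving out each library.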

Additional observations from a re-analysis of the deposited data

Results flagged for a closer look

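In 9 of 182 groups of 4 libraries looked at, 1 library stood apart from the other 3 by Dixon's criterion, which chance meets in about 1 of 20 groups. Of KO ladder libraries, replicate 4 held 3.65 CPM of Hpdl (the others 3.34, 3.34 and 3.39), 1.69 CPM of Pcdhb19 (2.20, 2.12 and 2.13), 40.7 CPM of Dnajc30 (29.2, 29.1 and 27.2) and 7.37 CPM of Pop7 (3.92, 3.89 and 3.26). KO replicate 1 held 4.12 CPM of Gpr27 (the others 5.71, 5.64 and 5.89), and KO replicate 3 held 0.200 CPM of Rnf208 (1.24, 1.44 and 1.35). Of WT ladder libraries, replicate 4 held 5.93 CPM of Id1 (the others 2.94, 2.5 and 3.08), and replicate 3 held 0.00824 CPM of Ndn and of Chmp1b, with 0 in the others; these are on the scale of the genotype comparison.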

How the results depend on the processing

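Of members tested between KO and WT ladder libraries, 143 were higher and 95 lower. With sums by gene 192 were higher and 161 lower of 629 tested, beside 456 tested in the main fit. Every other alternative run for these counts stayed within 1.5 times, although the number tested differed between some of them. Leaving out 1 library gave 132 to 153 higher and 83 to 96 lower. Between WT ladder and standard libraries 132 were higher and 121 lower, and leaving out 1 library gave 100 to 145 and 101 to 142. The called shares of a gene numbered 5, and 3 to 6 on leaving out 1 library (3 without KO replicate 1, KO replicate 2 or WT replicate 3). Replicate numbers pair nothing here: same-numbered KO and WT libraries correlated at -0.05, 0.07, -0.04 and 0.04, and not every library correlated best with its own number. With the replicate as a block, 128 members were higher and 78 lower in KO, 6 shares were called, and 70 members were higher and 68 lower in WT ladder than in standard libraries.

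The share of coding counts was 3.17% in KO ladder, 2.70% in WT ladder and 3.35% in WT standard libraries by TPM, and 1.28%, 0.966% and 1.74% without the 5 most abundant members, an alternative chosen after seeing the data, as were the limit of under 10% shared words (107 higher and 67 lower) and TPM for the library types, by which 70 of the 132 members higher in WT ladder libraries were not higher. The median log2 fold change was 0.15 with 1 class of all lengths. Without a filter it was 0.17 from over 1000 to 2000 nt, and with DESeq2's size factors -0.066 over 6000 nt. Leaving out 1 library gave 0.23 to 0.52 up to 1000 nt, 0.19 to 0.32 to 2000 nt, 0.01 to 0.14 to 3000 nt, 0.17 to 0.27 to 4000 nt, -0.08 to 0.04 to 6000 nt and -0.16 to -0.070 beyond. Sums by gene turned Hnrnpf to 0.13, Zbtb18 to 0.57 and Pcdhga7 to -1.58, since they hold the other targets of the gene. Of the other values of named members, 1151 kept direction and side of the threshold, 43 lost the call and 27 gained it; the cause was not tested.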
